A study of Caenorhabditis elegans with 2 samples.

Results

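The synaptonemal complex and the meiotic chromosome axis are the structures that hold homologous chromosomes side by side while they recombine. Each pair of sister chromatids is folded along a protein axis, made of cohesin rings and of proteins with a HORMA domain. Once homologues are paired, rod-shaped proteins of the central region assemble between the axes and zip them together, and a small number of crossovers is then chosen along them. In Caenorhabditis elegans the syp genes encode central region proteins, him-3, htp-1, htp-2 and htp-3 encode the HORMA proteins of the axis, rec-8 encodes a meiotic cohesin subunit, and zhp-3 encodes a RING finger protein that marks future crossovers. All act in germ cells.

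These 10 genes (syp-1, syp-2, syp-3, syp-4, htp-1, htp-2, htp-3, him-3, rec-8 and zhp-3), of 19973 protein-coding genes on the nuclear chromosomes, were described in peak lists from chromatin immunoprecipitation followed by sequencing (ChIP-seq). The genes were selected by function but with the peaks of these data known, so peak positions and signal values chose the set, and they are given here as a description without a test. The animals were of strain RW12291, in which allele st12291 adds TY1, EGFP and 3xFLAG tags to the endogenous Y48G9A.11 gene on chromosome III by CRISPR, and chromatin was recovered with an antibody against GFP. Whole animals, synchronised by bleaching and starvation at the first larval stage, were collected as L4 larvae at 47.5 hours, and the series held 1 group of 2 biological replicates, all with the tag. Germ cells and somatic cells were pooled, so the cell type behind a peak is unknown, and no animals without the tag or under another condition were among the samples analysed. At no gene can recovery through the tagged protein therefore be told apart from recovery of that locus in any such experiment.

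A peak was assigned to a gene when its summit, the position of highest signal, fell in the 5' window, from 1000 bp before to 200 bp past the annotated start of the gene, or elsewhere in the gene body. The 4 thresholded lists were all cut at an irreproducible discovery rate (IDR, a measure of how poorly a peak's rank repeats between compared lists) of 0.01. These were a main pooled list of 2228 peaks, a second pooled list that the authors call conservative with 2171 peaks, and the lists of replicate 1 and replicate 2 alone, with 1358 and 1200 peaks. Weaker places came from the ranked lists, which hold every candidate peak (93476 in the pooled list). The signal is the authors' value for each peak on an unstated scale. Pooled signals were near the sum of the replicates' signals, so pooled sizes were not compared with those of a single replicate. Signals of the 2 replicates were set side by side as given, although depth per sample is unknown.

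In the main list, 3 of the 10 genes had a summit in the 5' window (syp-2, syp-4 and rec-8), against 6.13% of all protein-coding genes. The conservative list also gave 3 genes, with htp-2 in place of rec-8 (6.01% of protein-coding genes). The list of replicate 1 gave syp-2 and syp-4 in the window (background 4.3%) and so did that of replicate 2 (background 4.03%). Counting the gene body as well added no gene in the main list (background 9.29%) and added zhp-3 in the list of replicate 1. In all, 4 genes had a window peak in any of the 4 thresholded lists, 2 of them in all 4 lists, and 6 had none. The shares of protein-coding genes with a window peak in any list or in all 4 were not computed. Nor was the share with a peak in the window or body in the list of replicate 1. Since the peaks were known when the genes were chosen, nothing is read from these counts against the background.

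Among candidates, 8 of the 10 genes had a summit in the 5' window of the pooled ranked list, where 61.1% of protein-coding genes have one. The strongest window candidate of these 8 genes ranged from a signal of 45.9 at syp-1 to 647 at syp-2. For the 12212 protein-coding genes with a window candidate the median of this value was 44.7, and the 90th percentile was 99.6. Only syp-2 and syp-4 lay above that 90th percentile, and htp-3 and zhp-3 had no window candidate in the pooled list. In all, 50 pooled candidates fell at the 10 genes, 20 of them in 5' windows and 30 further inside gene bodies.

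**Figure D1:**
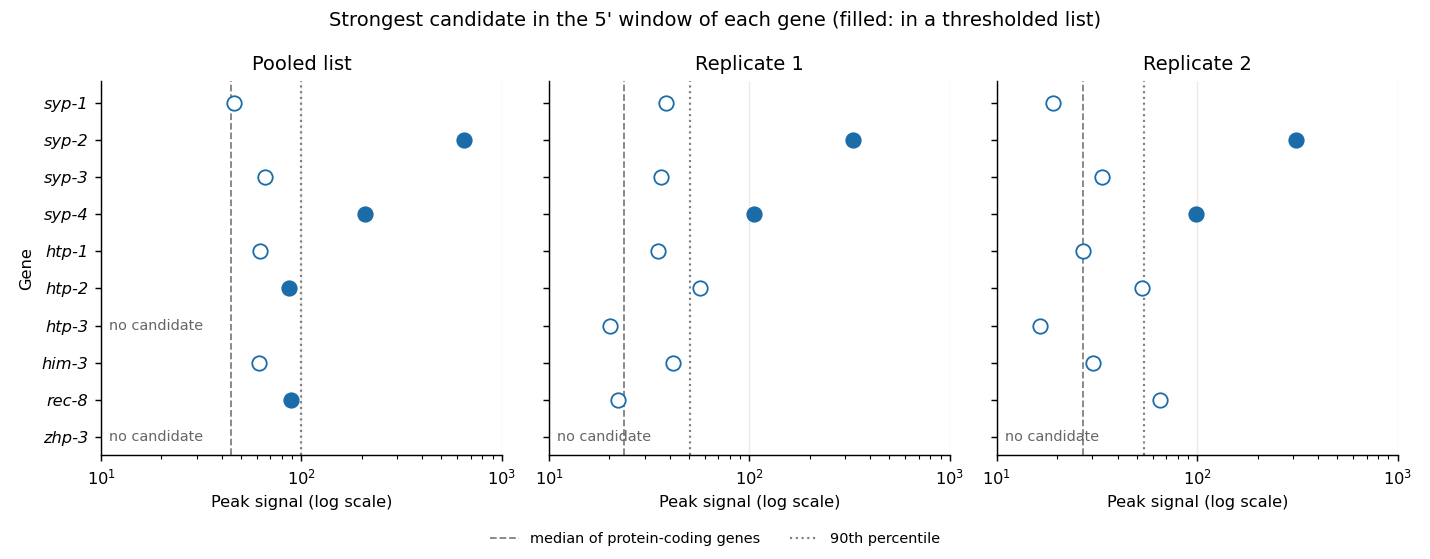
Signal (log scale) of the strongest candidate peak in the 5' window of each gene in the pooled ranked list and in the list of each replicate; filled points overlap a peak of a thresholded list (in the pooled panel, the main or the conservative list), and grey lines give the median and the 90th percentile over protein-coding genes with a candidate. The genes syp-2 and syp-4 are far to the right in each panel, while rec-8 is at 22.1 in replicate 1 and 65.1 in replicate 2.

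Of the 4 central region genes, syp-2 carried the strongest peak. Its summit lay at V:5536581, 94 bp inside the gene and in its annotated 5' untranslated region, in a peak at V:5536415-5536745. The pooled signal was 647, rank 60 of 2228 in the main list and also rank 60 in the conservative list. Replicate 1 gave 330 (rank 63 of 1358) with its summit at the same base offset of 94 bp, and replicate 2 gave 312 (rank 64 of 1200) with its summit at 103 bp. The summits thus lay within the width of 1 fragment (200 to 800 bp), and the ratio of replicate 2 to replicate 1 was 0.945, against a median of 1.05 over all main peaks with a candidate in both replicates. Its pooled signal stood at the 99.4th percentile of protein-coding genes with a candidate.

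The syp-2 peak lies at a divergent start. On the opposite strand, cox-16, named for a factor of cytochrome oxidase assembly, has its 5' end such that the summit is at -338 bp, and C24G6.8, annotated in RefSeq as a putative peptidyl-tRNA hydrolase, has the summit at -707 bp. The 3 genes share this 1 peak, and the lists do not say which of them it belongs to. The sequence just upstream of the syp-2 5' end is shown because it holds the part of the peak outside the gene (WBcel235, the build called ce11, V:5536337-5536486, plus strand, with capitals for the bases inside the main peak).

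syp-2 upstream: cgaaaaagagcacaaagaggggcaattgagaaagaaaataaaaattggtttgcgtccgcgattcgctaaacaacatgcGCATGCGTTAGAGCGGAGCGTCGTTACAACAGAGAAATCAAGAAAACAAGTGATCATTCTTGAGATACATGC

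The 100 bp centred on the syp-2 summit, which lie further inside the gene than the sequence printed, were 28% GC. Over all main peaks the median was 46% with a 10th percentile of 34%, and 2.15% of main peaks were at or below the syp-2 value. Every stretch of 36 bases in the syp-2 peak occurred once in the genome. A second pooled candidate in the syp-2 window, at -899 bp, had a signal of 73.0 and was in no thresholded list.

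The gene syp-4 had the other central region peak found in every list. Its summit lay at I:6847316, at -195 bp, in a peak at I:6847154-6847477, with a pooled signal of 206 (rank 462 of 2228). Replicate 1 gave 106 (rank 461 of 1358, summit at -192 bp) and replicate 2 gave 98.1 (rank 581 of 1200, summit at -218 bp). The ratio of replicate 2 to replicate 1 was 0.926. The replicates thus gave the same place with similar signals, at a rank in the middle of the list for replicate 2 and in the upper part for the pooled list.

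The syp-4 summit is nearer to other genes than to syp-4. It lay at -13 bp from the 5' end of H27M09.6, a small nuclear RNA gene on the opposite strand, and at 182 bp from the 5' end of H27M09.7, a noncoding RNA gene on the strand of syp-4, just past its 3' end. The protein-coding gene H27M09.5 on the opposite strand had the summit at -357 bp. In replicate 2 the summit lay 10 bp inside H27M09.6. Of the 289 stretches of 36 bases in this peak, 39 occurred more than once in the genome, the most frequent 11 times, so reads there may come from other copies; how the authors placed such reads is not given in the sources used here. The 100 bp at the summit were 55% GC.

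The other central region genes had candidates only. The syp-1 protein works with the other SYP proteins. Its strongest window candidate had a signal of 45.9 at -693 bp, inside a coding exon of the overlapping gene F13A7.14. Replicate 1 gave 38.2 there, and replicate 2 gave no candidate at that place and 19.1 at 22 bp. On the strand of syp-1, F13A7.14 runs from -2383 to 1074 bp, so the whole syp-1 window lies inside it. A stronger candidate of syp-1 lay past the window, at 1471 bp with a signal of 56.9, still in the annotated 5' untranslated region of syp-1. Near it, replicate 1 gave 24.4 at 1435 bp, in the same region, and replicate 2 gave 30.8 at 1530 bp, in a coding exon. At syp-3 the strongest of 3 window candidates had a signal of 65.9 at -270 bp, with an IDR of 0.100 between the replicates. Replicate 1 gave 36.3 there (summit at -160 bp) and replicate 2 gave 33.5 (summit at -237 bp). Another pooled candidate, at 10 bp in the 5' untranslated region of syp-3, had a signal of 52.3. Replicate 2 gave 29.1 at 7 bp, and the nearest summit of replicate 1 was that at -160 bp. The syp-3 window holds a repeat, with 136 of 1166 stretches of 36 bases found more than once and the most frequent 55 times. The strongest window candidates of syp-1 and syp-3 stood at the 51.9th and 75.8th percentile of protein-coding genes with a window candidate.

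**Figure D2:**
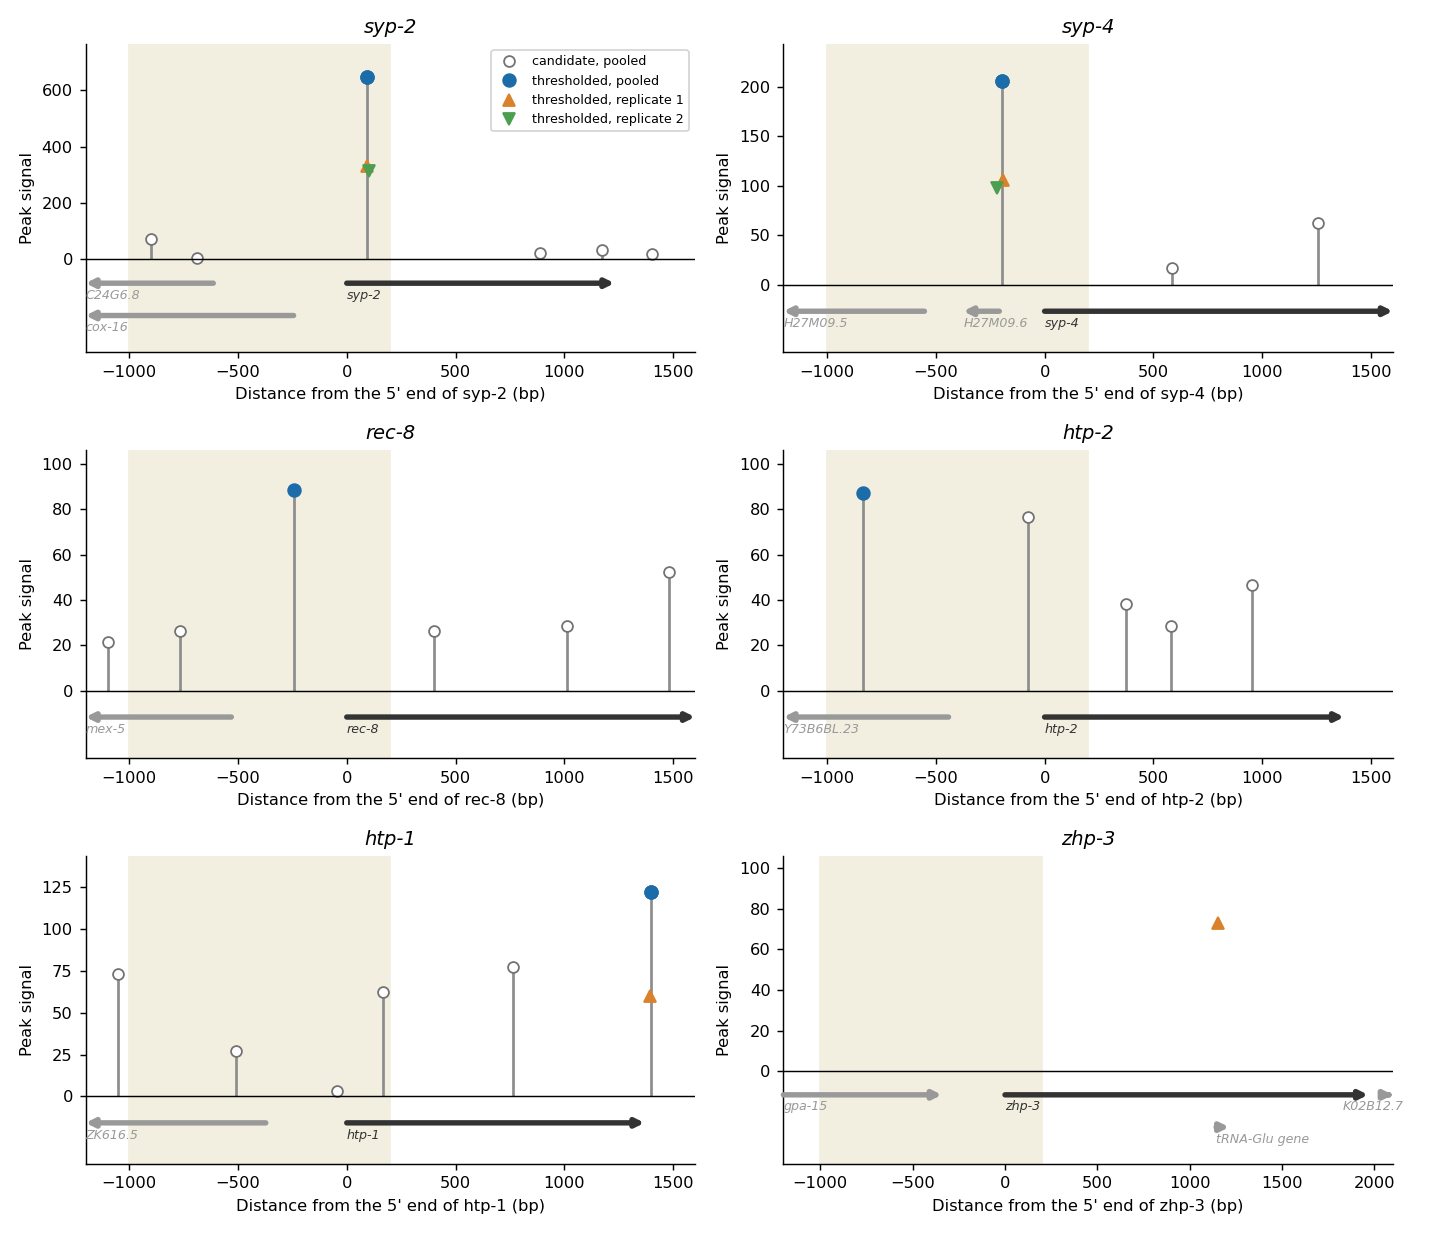
Candidate peaks of the pooled ranked list (open circles on stems), peaks of the pooled thresholded lists (blue circles) and of each replicate's thresholded list (triangles) around 6 genes, by summit distance from the annotated 5' end (bp) and signal on an axis that differs between panels; the shaded band is the 5' window and arrows are protein-coding, tRNA and snRNA genes pointing 5' to 3' (other noncoding genes are not drawn). The peaks of syp-2 and syp-4 carry both replicates, the rec-8 peak and the htp-2 window peak stand in a pooled list without a thresholded peak in either replicate, and the zhp-3 peak, at 1151 bp, is in replicate 1 only (a peak 1883 bp from the htp-2 5' end lies beyond the plotted range).

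Of the axis genes, rec-8 encodes the meiotic form of the cohesin kleisin, the subunit that closes the ring around sister chromatids. Its main list peak at IV:13353274-13353597 had its summit at IV:13353436, at -243 bp, between rec-8 and mex-5, a gene for a zinc finger protein of the early embryo that starts on the opposite strand with the summit at -287 bp. The pooled signal was 88.4, rank 2046 of 2228, so that 91.8% of the main list ranked at or above it. Replicate 1 gave 22.1 at this place, rank 32175 of its 87589 candidates, and replicate 2 gave 65.1, rank 1401 of 91008.

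The replicates therefore differed at rec-8. The ratio of replicate 2 to replicate 1 was 2.95, and 99.6% of the main peaks with a candidate in both had a lower ratio. Among main peaks with pooled signals from 80 to 100, of which 299 had a candidate in both replicates, the 5th to 95th percentile of this ratio ran from 0.538 to 2.17. The pooled ranked list that compares the replicates gave the place an IDR of 0.518. The other pooled ranked list, from which the main list was made and which compares lists other than the replicates' own, gave 0.00786. The peak was in neither replicate's thresholded list nor in the conservative list, which leaves out 410 of the 2228 main peaks.

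The rec-8 sequence is shown because the place is unique in the genome and lies between genes (WBcel235, IV:13353361-13353511, minus strand, with capitals for the summit and 10 bases on each side).

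rec-8 summit: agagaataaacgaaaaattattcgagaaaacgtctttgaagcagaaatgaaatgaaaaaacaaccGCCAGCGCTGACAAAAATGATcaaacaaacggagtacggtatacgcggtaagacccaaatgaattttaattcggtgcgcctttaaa

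The HORMA domain genes htp-1 and htp-2 are close paralogues that act in pairing and in the stepwise loss of sister cohesion. Their coding sequences were identical at 954 of 1056 bases (90.3%). The only thresholded window peak of a HORMA gene was that of htp-2 in the conservative list, at IV:6418526-6418849 with its summit at IV:6418688, at -834 bp. Its pooled signal was 87.0 (rank 2025 of 2171), with 46.7 in replicate 1 and 53.0 in replicate 2, a ratio of 1.14. The place had an IDR of 0.00633 in the comparison of the replicates and of 0.641 in the other pooled ranked list, so it entered 1 pooled list and not the other, the reverse of rec-8.

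The htp-2 peak lies inside another gene and in duplicated sequence. Its summit was in a coding exon of Y73B6BL.23, whose 5' window does not reach it. Of 289 stretches of 36 bases in the peak, 56 occurred at a second place, IV:5392433-5392619, inside ZK616.5 and 876 to 1062 bp upstream of the htp-1 5' end. That second copy held a candidate too, just outside the htp-1 window at -1051 bp, with a pooled signal of 73.0, 64.4 in replicate 2 and 16.5 in replicate 1. Its IDR between the replicates was 0.623 and it was in no thresholded list. The htp-2 sequence at the summit is shown since it overlaps this copied segment (WBcel235, IV:6418613-6418763, plus strand, with capitals for the summit and 10 bases on each side).

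htp-2 upstream: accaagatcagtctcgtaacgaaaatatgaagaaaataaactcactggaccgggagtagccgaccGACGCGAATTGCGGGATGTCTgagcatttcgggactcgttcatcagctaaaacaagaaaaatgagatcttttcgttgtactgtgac

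Nearer to its start, htp-2 had a further candidate at -78 bp with a pooled signal of 76.5. Replicate 1 gave 56.7 at -117 bp and replicate 2 gave 26.2 at -194 bp, so the summits were spread and no thresholded list held the place. For htp-1 the strongest window candidate had a signal of 62.3 at 165 bp, in its own coding sequence, with 34.9 in replicate 1 and 26.8 in replicate 2. A candidate deeper in the htp-1 coding sequence, at 765 bp, had a signal of 77.6. Within the 1369 bp of htp-1, 36 of 1334 stretches of 36 bases were found at a second place.

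A thresholded peak also touched the end of htp-1, outside the rule used here. It lay at IV:5389997-5390320 in the main and conservative lists, with its summit 30 bp past the annotated 3' end, and its interval overlapped the end of the gene. The pooled signal was 122 (rank 1289 of 2228), with 60.3 in replicate 1, where it passed the threshold, and 58.8 in replicate 2, where its IDR was 0.0233. Both replicates thus gave similar signals, and no annotated 5' window held the summit. A stronger peak lay past the end of htp-2, also outside the rule, with its summit 1883 bp from the htp-2 5' end. Its signal was 272 in the main and conservative lists, 119 in the list of replicate 1 and 159 in that of replicate 2. The summit was between a pseudogene (WBGene00044752) and puf-11, a gene on the strand of htp-2 that starts at 2063 bp on the same scale. It fell in the 5' windows of both puf-11 and the pseudogene, which is on the opposite strand. Within 2000 bp of the 10 genes, no other thresholded peak had its summit outside the 5' windows and bodies of these genes.

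The remaining HORMA genes had no thresholded peak. For him-3, which is needed for normal axis and synapsis, the strongest window candidate had a signal of 61.4 at 174 bp, in coding sequence, with 41.5 in replicate 1 and 23.4 in replicate 2. The region upstream belongs in part to pgl-1, a P granule gene, and a candidate just inside the window edge, at -982 bp, had a signal of 56.4. The gene htp-3, whose protein recruits the other HORMA proteins to the axis, had no pooled candidate in its window and 1 just outside, at -1025 bp, with a signal of 50.6. Its replicates gave 20.2 (at -985 bp) and 16.4 (at -550 bp), and its strongest pooled candidate was in coding sequence at 369 bp, with a signal of 52.0.

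The crossover gene zhp-3 had a thresholded peak in 1 list and no other candidate. No candidate of any pooled list, and none of replicate 2, overlapped the gene. Replicate 1 alone gave a peak at I:8530046-8530335 in an intron, with its summit 1151 bp from the 5' end, a signal of 72.9 and rank 907 of 1358. That intron holds a glutamate tRNA gene (WBGene00014418, I:8530128-8530199, 72 bp) on the same strand, and the summit lay 8 bp inside it. The same 72 bp occur 20 times in the genome, and none of its 37 stretches of 36 bases is unique, so reads from other copies cannot be told apart from reads of this one.

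**Figure D3:**
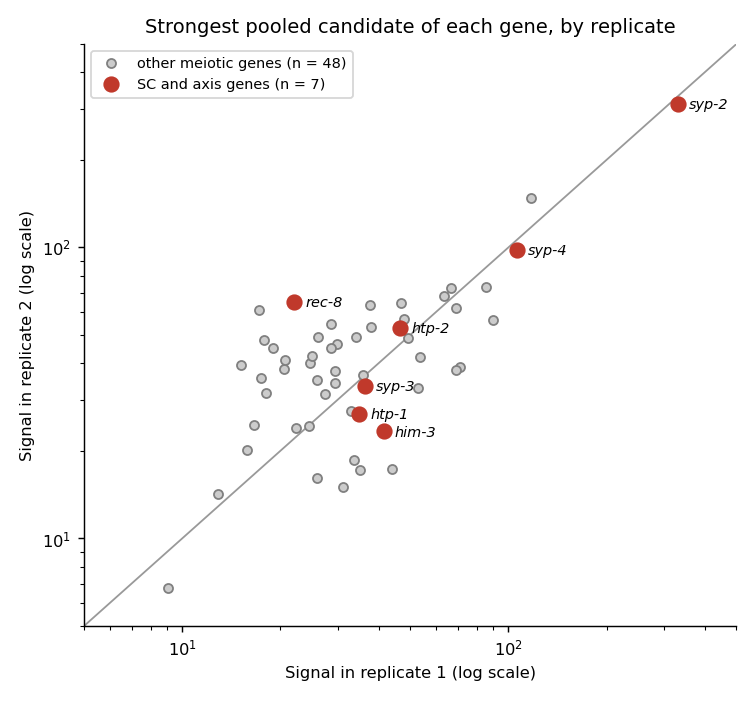
Signal of each gene's strongest pooled window candidate in replicate 1 (horizontal) and replicate 2 (vertical), both on log scales, for 7 of the synaptonemal complex and axis genes and 48 other meiotic genes with a candidate at that place in both replicates; the line marks equal signal. The points of syp-2 and syp-4 are near the line, and rec-8 lies above it with 22.1 against 65.1.

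Short sequence motifs were counted in the 100 bp around the summits of syp-2, syp-4, rec-8, htp-2 and zhp-3, on both strands. Those looked for were GCGCGAAA, a site of E2F type that 2.15% of main peaks have in a window of this length, and TTTGAA, the core of the cell cycle homology region used by DREAM complexes. To these were added the 5 hexamers most raised at the centres of the other main peaks away from tRNA genes. They were CGCGCG (in 6.46% of main peaks), CGGCCG (in 4.17%), GCGCGC (in 8.39%), ACGCGC (in 10.6%) and CGCGCA (in 9.56%), several of which overlap each other. None of the 5 summits had the E2F type site or any of these hexamers. TTTGAA was present at rec-8, starting at -41 bp from the summit in the sequence above, and at zhp-3, and 19.4% of main peaks have it. A match is a description of the letters only, and its absence says only that these letters are not in the window.

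The other genes of meiotic chromosome structure and recombination were taken from 6 lists by role, 66 genes found in the annotation. In the main list, 12 of the 66 (18.2%, background 6.13%) had a summit in the 5' window, and 18 had 1 in the window or the gene body (background 9.29%). The strongest window candidate of the 56 genes that had one reached a median signal of 61.3, against 44.7 over protein-coding genes. The conservative list kept 9 of the 12, where it holds 81.6% of all main peaks. The list of replicate 1 kept 5, that of replicate 2 kept 3, and 2 were in both replicates' lists. Those lists are shorter (1358 and 1200 peaks against 2228), and the share of all main peaks that they keep was not computed. The peaks of hal-3, him-6 and zhp-2 were in the main list only, as was that of rec-8. These lists too were drawn up with results of these data known.

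By role, the cohesin genes had 5 of these peaks among 13 genes. They include coh-3 (150, summit at -130 bp) and coh-4 (139, summit at -162 bp), which encode the kleisins that work beside REC-8 in meiosis, and smc-3 (123), a core ring subunit. The others are wapl-1 (113), whose protein releases cohesin, and tim-1 (142), a TIMELESS homologue. Replicates gave 89.9 and 56.2 at coh-3, and 66.6 and 72.4 at coh-4, where rec-8 had 22.1 and 65.1, so coh-4 was above rec-8 in both replicates and coh-3 in replicate 1 only. All stretches of 36 bases in the coh-3 and coh-4 peaks were unique.

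Of 8 further synaptonemal complex and ZHP genes, 2 had a main peak. The strongest 5' window peak among the 66 genes was that of syp-5, for another central region protein, with a pooled signal of 279 at -179 bp, 117 in replicate 1 and 147 in replicate 2, and it was in all 4 lists. Of the 6 syp genes looked at, syp-2, syp-4 and syp-5 had window peaks in every thresholded list. The gene syp-6 was in the list of replicate 1 only (109 in the pooled ranked list), and skr-1 and skr-2 were in none. The share of all protein-coding genes with a peak in every list was not computed, so nothing is read from this count. The RING finger gene zhp-2 had a main peak (105, at -409 bp) shared with lotr-1. It was in no other thresholded list. Replicate 1 gave 69.2 and replicate 2 gave 38.0 there, a ratio of 0.549, with an IDR of 0.0325 between the replicates.

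Among the remaining roles the counts were 2 of 10 for pairing and the nuclear envelope (sun-1 at 102 and hal-3 at 107), 1 of 12 for double-strand break formation (him-17 at 118), 2 of 16 for recombination (the helicase gene him-6 at 101 and the single-strand binding gene rpa-1 at 123) and 0 of 7 for checkpoints and regulation. In the him-6 peak, 164 of 289 stretches of 36 bases were not unique. Of the 12 peaks, 7 also lay in the 5' window of another protein-coding gene (bmk-1 for coh-3, pid-5 for coh-4, mib-1 and gly-9 for smc-3, htz-1 for wapl-1, Y75B8A.23 for tim-1, lotr-1 for zhp-2 and F18A1.7 for rpa-1). Over all main peaks in a protein-coding window, 31.6% lay in the windows of 2 or more such genes. The tim-1 summit was nearer to noncoding genes than to tim-1, from which it lay at -238 bp. It was at -63 bp from sls-2.8, annotated as a small nuclear RNA gene, and at 170 bp from Y75B8A.49, a noncoding RNA gene. Summits further inside the gene, with none in the window, were found in the main list at 6 of the 66 genes. Over all protein-coding genes, 6.13% had a main summit in the window and 9.29% in the window or the gene body. The strongest was in an intron of zim-1, a pairing centre gene, with a signal of 593 (rank 76 of 2228), 268 in replicate 1 and 303 in replicate 2, and a second intron peak there had 150. This zim-1 peak was thus stronger than the syp-5 window peak and was in all 4 lists. The summit of the stronger peak lay at -141 bp from a pseudogene (WBGene00011599). Further intron peaks were at scc-2 (228), brc-1 (194 and 146) and rad-50 (158), and mus-81 had a peak in a coding exon (98.6). None of the summits at these 5 genes was nearer than 85644 bp to a tRNA gene. The stronger brc-1 summit lay 2 bp past the 5' end of a pseudogene (WBGene00164983). The second zim-1 summit lay at -452 bp from another pseudogene (WBGene00044606). The brd-1 gene, like zhp-3, had peaks inside introns at tRNA genes (204 and 154), and there they were in the main list and both replicates' lists.

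**Figure D4:**
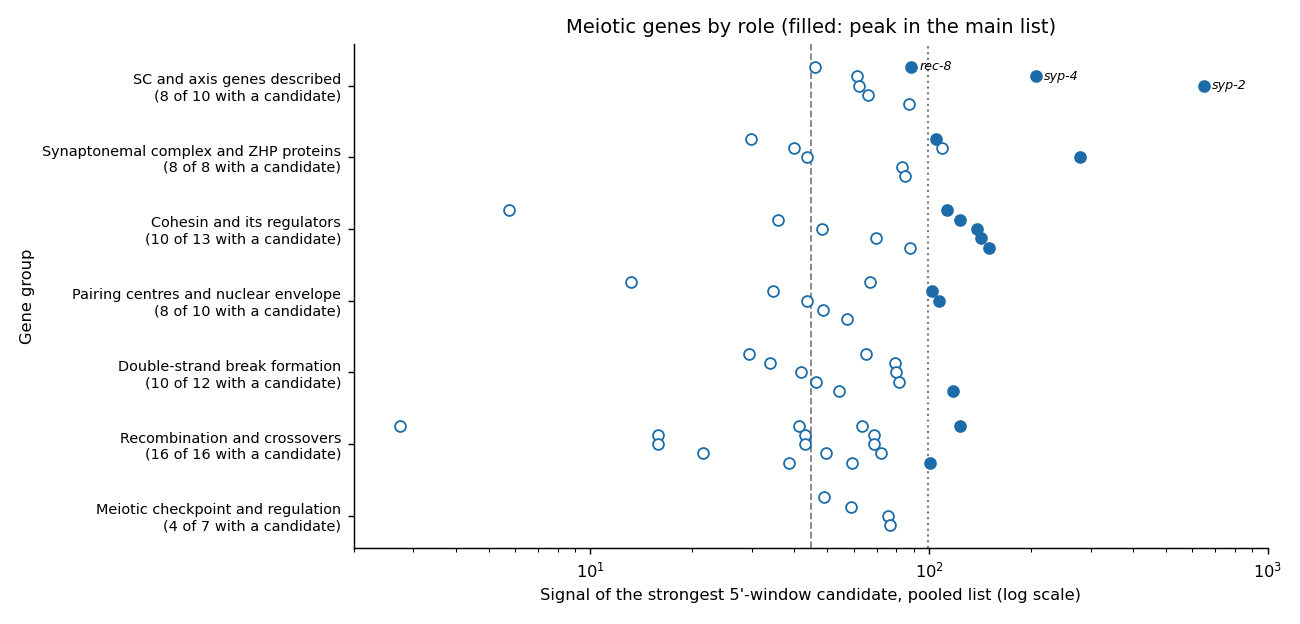
Pooled signal (log scale) of the strongest window candidate of each gene, by role, with the 10 synaptonemal complex and axis genes in the top row; filled points have a peak in the main list, the dashed line is the protein-coding median of 44.7 and the dotted line the 90th percentile of 99.6. The points of syp-2 (647), syp-5 (279) and syp-4 (206) lie farthest to the right.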

How the data were processed

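Peak lists on build ce11 were used as deposited by the authors, per the labels and the deposited file lists, for each of 2 replicates and for both together. Each deposited peak has a signal value and a score, in which 830 is an IDR of 0.01, and ranked lists hold the −log10 of the IDR. No source used here names the peak caller or the aligner. Depth per sample is unknown, so no interval was computed. Of the pooled ranked lists, the 1 used here holds the replicates' own values (80.8% and 86.4% of its entries were found in their lists).

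Genes came from Ensembl release 115 of WBcel235, sequences from the RefSeq copy of that assembly. Replicate values are those of the strongest candidate that overlaps a pooled peak by at least 1 bp. Assignment of summits was tested on simulated data. Named genes were all members, those sharing a member's main peak, and meiotic genes with a main peak; others were named after their values were seen. Members and lists were chosen with earlier results of these data known. No test was made. Python 3.11.15, numpy 2.4.6, pandas 2.3.3, Biopython 1.88 and matplotlib 3.10.9 were used. Alternatives were the conservative list, single replicates, stronger peaks, other windows and assignments, and wider motif windows.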

Additional observations from a re-analysis of the deposited data

How the results depend on the processing

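The count of synaptonemal complex and axis genes with a window peak was 3 in the main and conservative lists and with windows of 500 and 2000 bp. It was also 3 with overlap of the peak interval and with the nearest 5' end among protein-coding genes only. That nearest setting left out noncoding genes, and the syp-4 summit is nearer to the noncoding H27M09.6 and H27M09.7 than to syp-4. Among the other meiotic genes, the tim-1 summit is nearer to the noncoding sls-2.8 and Y75B8A.49 than to tim-1. With the 2 windows, interval overlap and nearest 5' end, the share over all protein-coding genes was 4.8%, 8.2%, 6.65% and 4.55%. The count of other meiotic genes in the same order was 10, 16, 13 and 8. For synaptonemal complex and axis genes the count was 2 in either replicate's list and among the stronger 50% of peaks, where rec-8 was lost. Counting the gene body, overlap of the interval added htp-1 and gave 4. The count of other meiotic genes fell from 12 to between 3 and 6 with a single replicate, and to 4 among the stronger 50% of peaks. These settings hold fewer peaks than the main list, and whether anything else lowered the count was not tested. The share of protein-coding genes fell from 6.13% to between 4.03% and 4.3% with a single replicate and to 3.97% among the stronger 50%, where fewer peaks are counted by construction. Motif counts were the same in 200 bp and in the whole peak, while the share of all main peaks with each motif was higher there. For TTTGAA this share was 38.5% in 200 bp and 52.7% in the whole peak, against 19.4% in 100 bp. No paired analysis was possible because all samples belong to 1 group. Without read counts, a missing candidate does not show a lack of signal.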
